A study of Mus musculus with 12 samples.

Results

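Enpp3, Nt5e, Slc28a2, Ada, Pnp and Xdh encode a route by which cells take purines apart, and enterocytes near the tip of the intestinal villus are known for high levels of several of them. These 6 genes were chosen by name as purine genes that mark the villus tip, and they were 6 of 15855 genes in a count table of small-intestinal epithelial cells. All 6 passed the filter on low counts, which kept 14462 genes, and none had a count of 0 in any sample, with counts between 303 and 106470 per sample. The 12 samples came from C57BL6/J mice, which the study's methods give as male and 8 to 12 weeks old, and the labels name no transgene or gene deletion. The sham group had 7 samples, taken 24 h after surgery without occlusion. The pMCAO group had 5 samples, taken 24 h after permanent middle cerebral artery occlusion, a stroke model in which an artery of the brain is blocked and not reopened, and a further pMCAO animal that the study counts was not analysed here. The cells were sorted from the whole length of the small intestine as live EpCAM+ cells, so duodenum, jejunum, ileum, crypt and villus were mixed in each library.

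Purine nucleotides that reach the gut lumen or leak from cells are shortened at the cell surface before they are taken up. Enpp3 is an ecto-enzyme that splits nucleoside triphosphates and related compounds to monophosphates, and Nt5e (CD73) removes the last phosphate of AMP to give adenosine. Slc28a2 (CNT2) is a sodium-coupled carrier that brings purine nucleosides into the cell. Inside, Ada turns adenosine into inosine, Pnp splits inosine to hypoxanthine, and Xdh oxidises hypoxanthine and xanthine to uric acid. In the small intestine this route limits how much dietary purine crosses the epithelium intact, and extracellular adenosine made by Nt5e acts on adenosine receptors of epithelial and immune cells.

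Positions below are on GRCm38 and follow GENCODE M21, with exon length taken as the union of all annotated exons. Enpp3 lies on the minus strand at chr10:24772406-24842823 and Nt5e on the plus strand at chr9:88327197-88372092. Slc28a2 and Ada share chromosome 2, Slc28a2 on the plus strand at chr2:122426477-122461137 and Ada on the minus strand at chr2:163726584-163750239. Xdh lies on the minus strand at chr17:73883895-73950196. The identifier of the Pnp row, ENSMUSG00000021871, is named Gm49342 in GENCODE M21, while RefSeq places Pnp at chr14:50944303-50953412, so no level per length is given for it. The gene that GENCODE M21 itself names Pnp was not among the genes tested. Of the 100-base windows in the longest transcript under the row's identifier, 95.1% stood identically in that gene and 33.0% in Pnp2. Of the windows of Slc28a2, 20.7% stood in a transcript of Gm14085. The counts of Pnp and Slc28a2 are therefore uncertain to the extent that reads were divided between these genes.

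Ada and Slc28a2 followed each other most closely across samples, and the sequences just before the 2 genes are shown so that their composition can be compared. The RefSeq table of GRCm38.p6 held promoters for 5 of the 6 genes, all but Xdh. Both sequences run 5′ to 3′ and end before the first base that RefSeq or GENCODE gives the gene. The Slc28a2 stretch is chr2:122426185-122426356 on the plus strand, and the Ada stretch is chr2:163750240-163750489 on the minus strand. Capitals mark matches to any of the motifs searched.
Slc28a2: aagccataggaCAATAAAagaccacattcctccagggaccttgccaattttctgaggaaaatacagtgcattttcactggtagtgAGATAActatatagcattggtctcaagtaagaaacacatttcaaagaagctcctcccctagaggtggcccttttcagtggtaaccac
Ada: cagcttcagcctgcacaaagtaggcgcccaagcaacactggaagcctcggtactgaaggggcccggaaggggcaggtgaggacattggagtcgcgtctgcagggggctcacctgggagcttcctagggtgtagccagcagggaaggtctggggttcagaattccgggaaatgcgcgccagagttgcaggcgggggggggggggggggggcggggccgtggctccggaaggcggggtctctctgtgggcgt
The motifs were GTTAAT for a partial HNF1 site, CAAAGTC for HNF4, CAATAAA for CDX2, AGATAA for factors of the GATA family, TGANTCA for AP-1 and TATAAA for the TATA box, searched on both strands in the 250 bases before each start. Slc28a2 held a CDX2 match and a GATA match, which did not overlap and began at -161 and -87 of the printed stretch, counted back from -1 as its last base. The 250 bases searched for Slc28a2 reach to chr2:122426434, beyond the end of the printed stretch, because the transcript start in the promoter table lies inside the gene as RefSeq bounds it. Those letters stood in 4.20% and 9.99% of 32851 promoters of that length. None of the 6 motifs matched before Ada, Nt5e or Pnp. Enpp3 held 1 match to the TATA box letters, on the opposite strand (TTTATA) and beginning at -209 of its 250 bases. Those letters, on either strand, stood in 12.4% of promoters. The 250 bases searched for Nt5e (chr9:88327359-88327608) and Enpp3 (chr10:24836196-24836445) end before the RefSeq start. They lie inside the genes as GENCODE bounds them. G and C made up 67.2% of the 250 bases for Ada and 72% of those for Nt5e. The share was 45.2% for Slc28a2, and the median over all promoters was 52.4%.

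Total counts ranged from 7418730 to 31925579 per sample and averaged 13442588 in sham and 22183984 in pMCAO (p = 0.0934, exact two-sided permutation test). The 32 mitochondrially encoded genes took 24.2 to 62% of the counts. The first principal component, with 40.5% of the variance, set the 4 libraries numbered 58 to 61 in the titles (pMCAO replicate 1 and sham replicates 1 to 3) apart from the other 8. The fold changes of the 6 genes are therefore also given with blocks of consecutive library numbers (58 to 61, 62 to 65, 66 to 68, and 72 alone) and within them, and those of other genes where the blocks move them by more than 1.5 times or change which side of an unadjusted p of 0.05 they are on. Library 72, sham replicate 7, has a block to itself and carries no information on the groups in that fit.

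By level per kilobase of exon, Ada was the most abundant of the 5 genes with a usable length, followed by Slc28a2, Enpp3, Nt5e and Xdh. In sham samples, in TMM-scaled CPM per kilobase (CPM, a count scaled to the size of its library), Ada stood at 1461 ± 695 and Slc28a2 at 936 ± 465 (SD, n = 7). Enpp3 stood at 254 ± 128, Nt5e at 202 ± 113 and Xdh at 69.0 ± 29.6 on the same scale. The sham samples of each gene overlapped with those of the next in this order. Within samples the order held more firmly. Ada exceeded Slc28a2 in 12 of 12 samples, by 1.47 to 2.57 times, and Slc28a2 exceeded Enpp3 in 12 of 12. Enpp3 exceeded Nt5e in 11 of 12 samples and Nt5e exceeded Xdh in 9 of 12.

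None of the 6 genes differed between pMCAO and sham mice after adjustment over all genes, and none had sham and pMCAO samples that did not overlap. In the limma-voom fit on group alone, 0 of 14462 genes (0.00%) passed an adjusted p of 0.05. An unadjusted p under 0.05 was reached by 0 of the 6 genes against 8.43% of all genes tested (1219 genes). Groups that did not overlap were found for 0 of the 6 against 0.505% of all genes. The estimated log2 fold change, pMCAO minus sham, was below 0 for 6 of 6 genes, where 44.8% of all genes were below 0, and the median of the 6 was -0.34 against 0.06 over all genes. In the fit with library blocks it was below 0 for 5 of 6 against 48.7% of all genes, and the median was -0.17 against 0.01. With libraries scaled by total counts only, it was above 0 for Enpp3 (0.0591), Xdh (0.223) and Pnp (0.183). The 6 genes ran together across samples, with Pearson's r of 0.56 to 0.96 between them. Their signs are therefore not independent of each other. No gene of the 6 was lower in pMCAO within each of the 3 blocks that held both groups, which 13.4% of all genes were. In bulk libraries such as these, fewer cells of a type and less RNA per cell cannot be told apart.

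**Figure D1:**
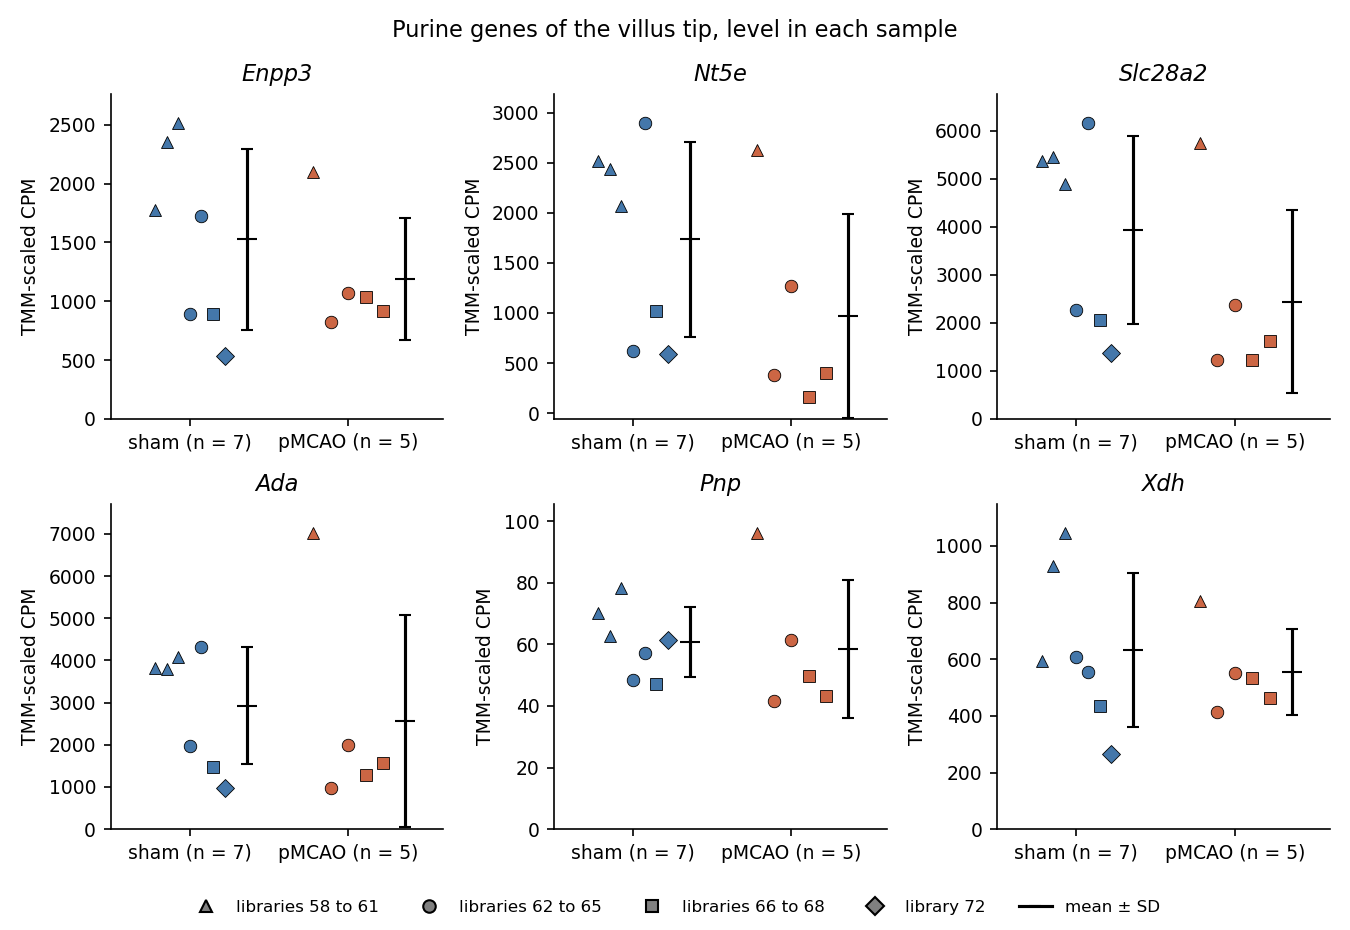
TMM-scaled CPM of the 6 genes in each of 7 sham (blue) and 5 pMCAO (orange) samples, with marker shapes for the blocks of library numbers and the mean ± SD beside each group. In every panel the groups overlap, and pMCAO replicate 1, the triangle, stands above the other 4 pMCAO samples.

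Enpp3 acts first in the route. Its level in sham samples ran from 536 CPM through a median of 1728 to 2515 CPM. In pMCAO replicates 1 to 5 it was 2098, 824, 1073, 1033 and 919 CPM. Replicate 1 stood with the 3 sham samples of its own library block, at 1772 to 2515 CPM. The other 4 pMCAO samples lay near sham replicates 4 and 6 of the later libraries, at 892 and 894 CPM. Sham replicate 5, at 1728 CPM, lay above these 4 and sham replicate 7, at 536 CPM, below them. The means were 1528 ± 770 CPM in sham and 1189 ± 517 CPM in pMCAO. The log2 fold change was -0.28 with a standard error of 0.38 (limma-voom adjusted p = 0.859), with a 95% interval of -1.08 to 0.53. With library blocks it was -0.15 with a standard error of 0.18 (adjusted p = 0.766), and within the blocks it was -0.06, -0.40 and 0.12.

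Nt5e, the enzyme that makes adenosine at the cell surface, had the lowest estimate of the 6 and the widest spread. Sham samples ran from 586 CPM through a median of 2064 to 2901 CPM. The pMCAO replicates 1 to 5 held 2628, 381, 1274, 161 and 404 CPM, so 3 of the 5 lay below every sham sample while replicate 1 lay above all but 1 of them. The coefficient of variation was 55.9% in sham and 105% in pMCAO. The log2 fold change was -1.28 with a standard error of 0.62 (unadjusted p = 0.0541, adjusted p = 0.602, limma-voom), with a 95% interval of -2.58 to 0.03. With library blocks it was -0.88 with a standard error of 0.42 (adjusted p = 0.396). Within blocks the difference was 0.17 in libraries 58 to 61, -0.95 in 62 to 65 and -1.99 in 66 to 68, so its sign was not the same in all 3.

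Slc28a2 takes up the nucleosides that the surface enzymes release. Sham samples ran from 1382 CPM through a median of 4896 to 6157 CPM. In pMCAO replicates 1 to 5 the values were 5746, 1226, 2371, 1226 and 1619 CPM. Replicates 2 and 4 of pMCAO lay below every sham sample, and replicate 1 lay above all sham samples but replicate 5. The log2 fold change was -0.78 with a standard error of 0.45 (unadjusted p = 0.101, adjusted p = 0.645, limma-voom), with a 95% interval of -1.72 to 0.17. It was the only 1 of the 6 genes with an unadjusted p under 0.05 in the limma-voom fit with library blocks, where 12.7% of all genes reached it. There its log2 fold change was -0.57 with a standard error of 0.26 (unadjusted p = 0.0432, adjusted p = 0.371), with a 95% interval of -1.13 to -0.02. Within blocks the values were 0.14, -1.13 and -0.55. Gm14085, the gene that shares part of its transcript sequence, had a log2 fold change of -0.85 (adjusted p = 0.619, limma-voom).

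**Figure D2:**
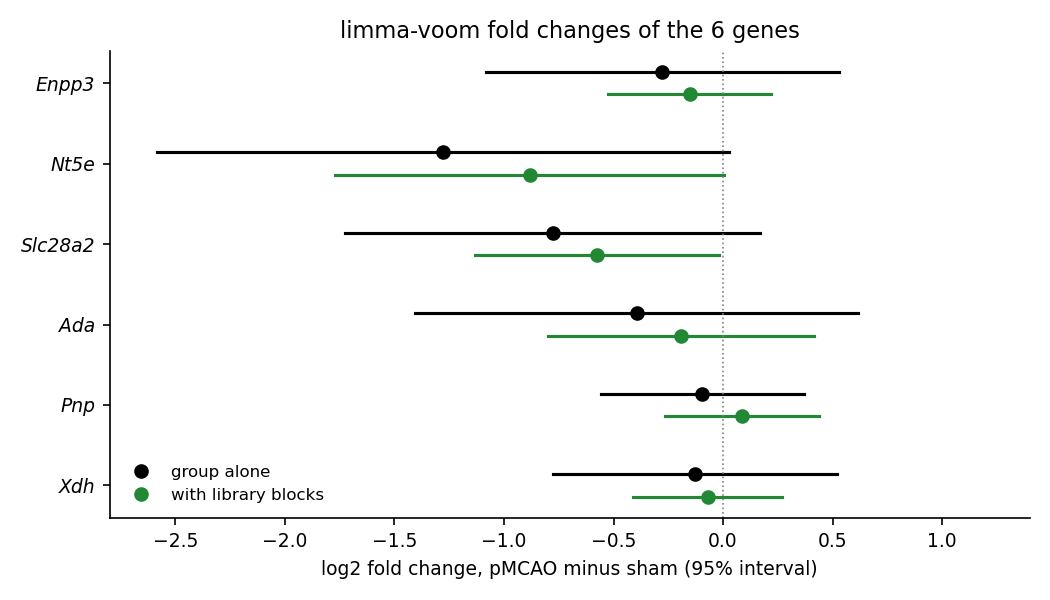
Log2 fold change of each gene, pMCAO minus sham, from limma-voom on group alone (black) and with blocks of library numbers (green), with 95% intervals as lines. Of the 12 intervals, only that of Slc28a2 with library blocks, -1.13 to -0.02, leaves out 0.

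Ada, the deaminase that converts adenosine to inosine, had the most abundant transcript of the 5 per length, and 1 pMCAO sample set its spread. Sham samples ran from 986 CPM through a median of 3801 to 4322 CPM. The pMCAO replicates 1 to 5 held 7012, 979, 1999, 1284 and 1576 CPM. Replicate 1 was above all 7 sham samples, and only replicate 2 was below all of them. The means, 2926 ± 1392 CPM in sham and 2570 ± 2511 CPM in pMCAO, differed by less than either SD. The log2 fold change was -0.39 with a standard error of 0.48 (adjusted p = 0.840, limma-voom), and -0.19 with a standard error of 0.29 with library blocks (adjusted p = 0.825). Within blocks it was 0.85, -1.06 and -0.06. Without pMCAO replicate 1 the log2 fold change was -0.89 for Ada, -1.83 for Nt5e and -1.18 for Slc28a2, and each of the 3 had an unadjusted p under 0.05, as 14.1% of all genes did without that sample, with an adjusted p of 0.322 for Ada, 0.186 for Nt5e and 0.225 for Slc28a2 in limma-voom.

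Pnp and Xdh, the last steps to uric acid, had the steadiest levels. Pnp ran from 47.0 CPM through a median of 61.3 to 78.4 CPM in sham samples. In pMCAO replicates 1 to 5 it stood at 96.0, 41.6, 61.3, 49.8 and 43.2 CPM. Its log2 fold change was -0.10 with a standard error of 0.22 (adjusted p = 0.925, limma-voom), and 0.09 with library blocks (adjusted p = 0.871), with 95% intervals of -0.56 to 0.37 and -0.26 to 0.44. Pnp2, the adjacent copy, had a log2 fold change of 0.18 (adjusted p = 0.877, limma-voom). Xdh ran from 264 CPM through a median of 594 to 1045 CPM in sham samples. In pMCAO replicates 1 to 5 it stood at 807, 413, 551, 533 and 464 CPM, all within the sham range. Its log2 fold change was -0.13 with a standard error of 0.31 (adjusted p = 0.928, limma-voom) and -0.07 with library blocks (adjusted p = 0.900), and the 95% interval of the first was -0.78 to 0.52.

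In TMM-scaled CPM all 6 genes differed in mean between blocks of library numbers. On that scale all 6 had a higher mean over both groups in libraries 58 to 61 than in the 8 later libraries. The TMM factors, which rescale each library, ran from 0.56 to 0.79 in libraries 58 to 61 and from 0.99 to 1.52 later. With counts over total counts instead, the early mean was not higher for Pnp or Xdh. The early and later libraries also overlapped there for Enpp3 and Pnp. In TMM-scaled CPM Ada averaged 4681 ± 1559 in libraries 58 to 61 (n = 4) and 1826 ± 1081 in the later ones (n = 8). For Nt5e these means were 2411 ± 245 and 918 ± 878 CPM, and for Slc28a2 they were 5362 ± 352 and 2289 ± 1628 CPM. Among the later libraries sham replicate 5 stood alone near the early ones, with 4322 CPM of Ada, 2901 CPM of Nt5e and 6157 CPM of Slc28a2. Enpp3 averaged 2186 ± 325 against 987 ± 340 CPM, and its lowest early library, at 1772 CPM, lay above its highest later one, at 1728 CPM. Pnp averaged 76.8 ± 14.3 against 51.2 ± 7.8 CPM, also with no overlap, and Xdh 844 ± 193 against 478 ± 109 CPM. Of the 7 sham samples 3 were early libraries, and of the 5 pMCAO samples 1 was. The part of this imbalance in the group means of the 6 genes was not tested. Without these 4 libraries the log2 fold change was -1.28 for Nt5e (unadjusted p = 0.0417, adjusted p = 0.655, limma-voom), -0.70 for Slc28a2 (adjusted p = 0.708) and -0.42 for Ada (adjusted p = 0.831). It was 0.06 for Enpp3, 0.15 for Xdh and -0.12 for Pnp, so the estimates of Enpp3 and Xdh changed sign.

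**Figure D3:**
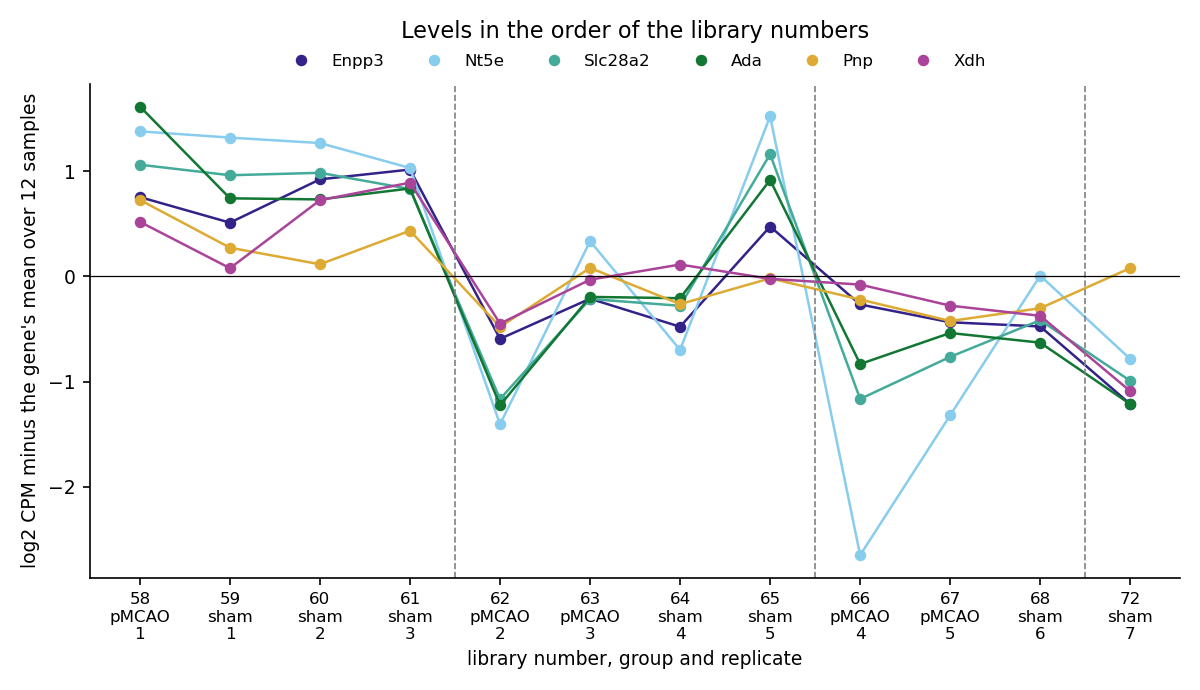
Log2 CPM of each gene minus its mean over the 12 samples, in the order of the library numbers, with group and replicate under each and dashed lines between the blocks. Lines only join the values of 1 gene, and the 4 libraries at the left lie above 0 for all 6 genes.

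Markers of other epithelial cells moved with the same libraries. The 7 goblet cell markers summed to 4131 to 8115 CPM in libraries 58 to 61 and to 20586 to 55137 CPM in the later ones. The 7 enteroendocrine markers summed to 199 to 402 against 1644 to 3443 CPM, and the 6 tuft cell markers to 17.8 to 56.7 against 218 to 974 CPM. The 15 villus tip markers, none of them among the 6 genes, ran the other way, from 21862 to 32548 CPM in the early libraries and from 9312 to 22177 CPM in the later ones. The sum of the 14 villus middle markers also ran higher early, at 24866 to 48878 against 13995 to 26421 CPM. Their mean log2 CPM did not, at 8.40 ± 0.38 against 8.64 ± 0.44. By group these sums overlapped, with goblet cell markers at 4131 to 49735 CPM in sham and 7304 to 55137 CPM in pMCAO. On group alone 0 of 7 goblet cell markers had an unadjusted p under 0.05, against 8.43% of all genes. With library blocks 5 of 7 did, all higher in pMCAO, as 6.58% of all genes were. Among them was Zg16, a lectin of mucus, at a log2 difference of 0.74 (adjusted p = 0.211, limma-voom). The part of these other cells in the levels of the 6 genes was not tested. Epithelial identity markers were found in all samples, with 7 of 7 tested. In TMM-scaled CPM they summed to 5931 to 7563 in libraries 58 to 61 and to 3572 to 5589 in the later ones, with no overlap. Their mean log2 CPM was 8.93 ± 0.24 and 8.87 ± 0.19. Lymphocyte markers summed to 49.0 to 785 CPM in sham and 79.8 to 595 CPM in pMCAO. On group alone 0 of 13 of them had an unadjusted p under 0.05. With library blocks 6 of 13 did, all higher in pMCAO, against the same 6.58% of all genes. Among them was Cd8a, a marker of cytotoxic T cells, at a log2 difference of 1.43 (adjusted p = 0.167, limma-voom). Macrophage and dendritic cell markers summed to 10.9 to 43.9 CPM, and 1 of 6, Itgax, had an unadjusted p under 0.05 on group alone, with 1.54 (adjusted p = 0.557). None of 5 Paneth cell, 7 enteroendocrine, 5 tuft cell and 7 epithelial markers did on group alone. With library blocks 1 of 6 macrophage and dendritic cell markers was higher at that p and 1 of 5 tuft cell markers was lower. None of the Paneth cell, enteroendocrine and epithelial markers reached it there. Of the stroma and endothelium markers, 8 of 10 were not among the genes of the table (Col1a1, Col1a2, Col3a1, Dcn, Pdgfra, Acta2, Cdh5 and Kdr).

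The 6 genes, chosen as purine genes of the villus tip, followed other tip markers across samples to unequal degrees. Pearson's r with the mean log2 CPM of the 15 tip markers over 12 samples was 0.93 for Slc28a2, 0.91 for Nt5e, 0.87 for Ada, 0.81 for Enpp3, 0.81 for Pnp and 0.62 for Xdh. After each block's mean was subtracted (11 samples, sham replicate 7 left out) r was 0.94 for Slc28a2, 0.85 for Nt5e, 0.80 for Ada and 0.69 for Enpp3. It was 0.26 for Pnp and -0.01 for Xdh, the lowest of the 6. With the 13 crypt markers r over 12 samples lay between -0.89 for Enpp3 and -0.56 for Pnp. After subtraction of block means it lay between -0.67 for Enpp3 and -0.30 for Pnp. Negative r was not particular to crypt markers. With the 7 goblet cell markers it lay between -0.91 for Enpp3 and -0.72 for Pnp over 12 samples. All these values describe the same libraries, whose genes share 1 scaling factor per library, and no p is given for them.

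Among themselves the 6 genes ran together to unequal degrees. Ada and Slc28a2 had r = 0.96 over the 12 samples and 0.89 after subtraction of block means. Nt5e and Slc28a2 had 0.94 and 0.89, and Ada and Nt5e had 0.85 and 0.71. Enpp3 had 0.91 and 0.70 with Ada, 0.89 and 0.75 with Slc28a2 and 0.75 and 0.53 with Nt5e. Enpp3 and Xdh had 0.91 and 0.55, and Nt5e and Xdh had 0.56 and -0.01. Ada and Pnp had 0.79 and 0.70. These values describe the 12 samples and carry no test.

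Ratios within a sample do not depend on the scaling of libraries. The log2 ratio of Ada to Slc28a2 varied least in sham of the 6 ratios computed, at -0.42 ± 0.13 in sham (range -0.52 to -0.19) and -0.05 ± 0.25 in pMCAO (range -0.32 to 0.29), and the ranges overlapped. It averaged -0.24 in libraries 58 to 61 and -0.28 in the later ones, unlike the level of each gene alone. The log2 ratio of Nt5e to Ada was -0.82 ± 0.40 in sham and -1.68 ± 0.87 in pMCAO. In pMCAO replicates 1 to 5 it was -1.42, -1.36, -0.65, -3.00 and -1.96, and the sham samples ran from -1.67 to -0.54. The log2 ratio of Xdh to Pnp was 3.28 ± 0.60 in sham and 3.28 ± 0.16 in pMCAO, where it varied least. The ratios were computed after the levels were seen and no test was made of them.

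The genes most like each of the 6, by Pearson's r of log2 CPM over the 12 samples among all genes tested, were taken as the first 3. For Ada they were Trip11 (0.99), Apoa4 (0.97) and Pcyt2 (0.97). Apoa4, an apolipoprotein of chylomicrons and 1 of the villus tip markers, and Trip11 stayed in the first 3 after block means were subtracted, at 0.94 and 0.96, beside Tor1a (0.96). For Nt5e they were Utp14b (0.98), Acsl3 (0.98), a fatty acyl-CoA ligase, and Eif2ak3 (0.97), the stress kinase PERK, and the same 3 genes led within blocks at 0.95 to 0.96. For Slc28a2 they were Asap1, Aff4 and 2010107G12Rik, each at 0.98, and within blocks 2010109I03Rik (0.97), AA986860 (0.95) and Lgals3 (0.95), a galectin. For Enpp3 they were Pfkfb4, Erbb3 and Ccrn4l at 0.97, and within blocks Mon1a, Usp32 and Irf7 at 0.93 to 0.96. For Xdh they were Gm37470 (0.97), AU040320 (0.95) and Tmc5 (0.94), and within blocks Gm37470 (0.93), Hat1 (0.91) and Dusp6 (0.90). For Pnp they were Prkcsh (0.95), Arl4a (0.93) and Tubb2a (0.93), and within blocks Osbpl1a, Rnf125 and Arl2 at 0.93 to 0.95.

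The wider purine pathway was read from 5 lists of 101 genes, of which 77 were in the table and 76 were tested. None passed an adjusted p of 0.05 on group alone. An unadjusted p under 0.05 was reached by 5 of the 76, or 6.58%, against 8.43% of all genes, and with library blocks by 9, or 11.8%, against 12.7%. The median log2 fold changes of the 5 lists lay between 0.18 and 0.44 on group alone, where all genes lay at 0.06. With library blocks they were 0.16 for breakdown and salvage, 0.08 for surface enzymes and their relatives, 0.12 for transporters, 0.04 for receptors and 0.28 for synthesis, where all genes lay at 0.01.

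Of the 20 tested genes of purine breakdown and salvage, 1 had an unadjusted p under 0.05. That was Ahcy, which splits S-adenosylhomocysteine to adenosine and homocysteine, with 3.95 ± 1.99 CPM in sham and 9.06 ± 2.24 CPM in pMCAO. Its log2 fold change was 1.29 with a standard error of 0.32 (adjusted p = 0.268, limma-voom), and it was higher within each block, by 1.46, 0.61 and 1.63. Adk, the kinase that returns adenosine to AMP, stood at 5.04 ± 1.86 and 7.97 ± 2.54 CPM with a log2 fold change of 0.48, and Dck, which phosphorylates deoxynucleosides, at 6.09 ± 3.92 and 3.65 ± 0.64 CPM with -0.50 (adjusted p = 0.677 and 0.742, limma-voom).

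The list of other surface enzymes and their relatives had a median log2 fold change of 0.22 on group alone. Of its 17 tested genes, 1 had an unadjusted p under 0.05. That gene, Enpp2, the enzyme autotaxin that makes lysophosphatidic acid, was at 1.17 ± 1.80 CPM in sham and 2.80 ± 1.61 CPM in pMCAO, with a log2 fold change of 2.19 and a standard error of 0.86 (adjusted p = 0.512, limma-voom), and 1.4 with library blocks (adjusted p = 0.339). Enpp2 had a count of 0 in 3 samples and at most 123 counts in any, and its values within blocks were 3.10, -0.07 and 2.16. Enpp1, which also hydrolyses nucleoside triphosphates, had 0.71 (adjusted p = 0.603). Entpd8, a surface enzyme that removes phosphates from ATP and ADP, stood at 546 ± 243 CPM in sham and 353 ± 227 CPM in pMCAO. Its log2 fold change was -0.67 with a standard error of 0.38 (adjusted p = 0.638, limma-voom), and -0.64 with library blocks (unadjusted p = 0.0176, adjusted p = 0.275). Within blocks it was 0.24, -1.04 and -0.93.

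Transporters held the only gene of these lists that passed an adjusted p of 0.05 in the fit with library blocks, as 0.477% of all genes did. Slc17a4, an anion carrier of the apical membrane that can export urate, had a log2 fold change of 1.28 there (adjusted p = 0.0332, limma-voom) and of 1.83, 0.82 and 1.43 within the blocks. On group alone it had 0.78 with a standard error of 0.43 (adjusted p = 0.632), from 111 ± 49.6 CPM in sham and 203 ± 176 CPM in pMCAO. Abcg2, which pumps urate out of enterocytes, was at 64 ± 10.9 and 90.6 ± 25.3 CPM. Its log2 fold change was 0.48 with a standard error of 0.20 (unadjusted p = 0.0254, adjusted p = 0.53, limma-voom), and 0.60 with library blocks (adjusted p = 0.132), and it was higher within each block by 0.87, 0.43 and 0.65. Slc43a3, a carrier of nucleobases, was at 3.55 ± 4.07 and 1.71 ± 1.66 CPM, with -1.11 (adjusted p = 0.718). Xdh, whose product these exporters carry, had -0.05, -0.28 and 0.20 within the same blocks.

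Among 11 adenosine and P2 receptors, none had an unadjusted p under 0.05. P2ry1, a receptor for ADP, had the smallest, with a log2 fold change of 0.42 (adjusted p = 0.682, limma-voom). The adenosine receptors Adora2a and Adora2b were low, at 2.33 ± 1.62 and 2.73 ± 1.48 CPM in sham and 1.28 ± 1.29 and 2.84 ± 1.83 CPM in pMCAO, and had -1.03 and -0.71 (adjusted p = 0.687 and 0.731), the latter -0.34 with library blocks. Of 16 genes of purine synthesis from simple precursors and nucleotide interconversion, 2 had an unadjusted p under 0.05 in opposite directions. Guk1, which phosphorylates GMP, was at 20.5 ± 6.6 and 32 ± 6.5 CPM with 0.67 and a standard error of 0.23 (adjusted p = 0.440). Adss, which starts the conversion of IMP to AMP, was at 119 ± 22.4 and 86.3 ± 37.9 CPM with -0.53 and a standard error of 0.23 (adjusted p = 0.567). Prpsap1 had 0.52 (adjusted p = 0.619).

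**Figure D4:**
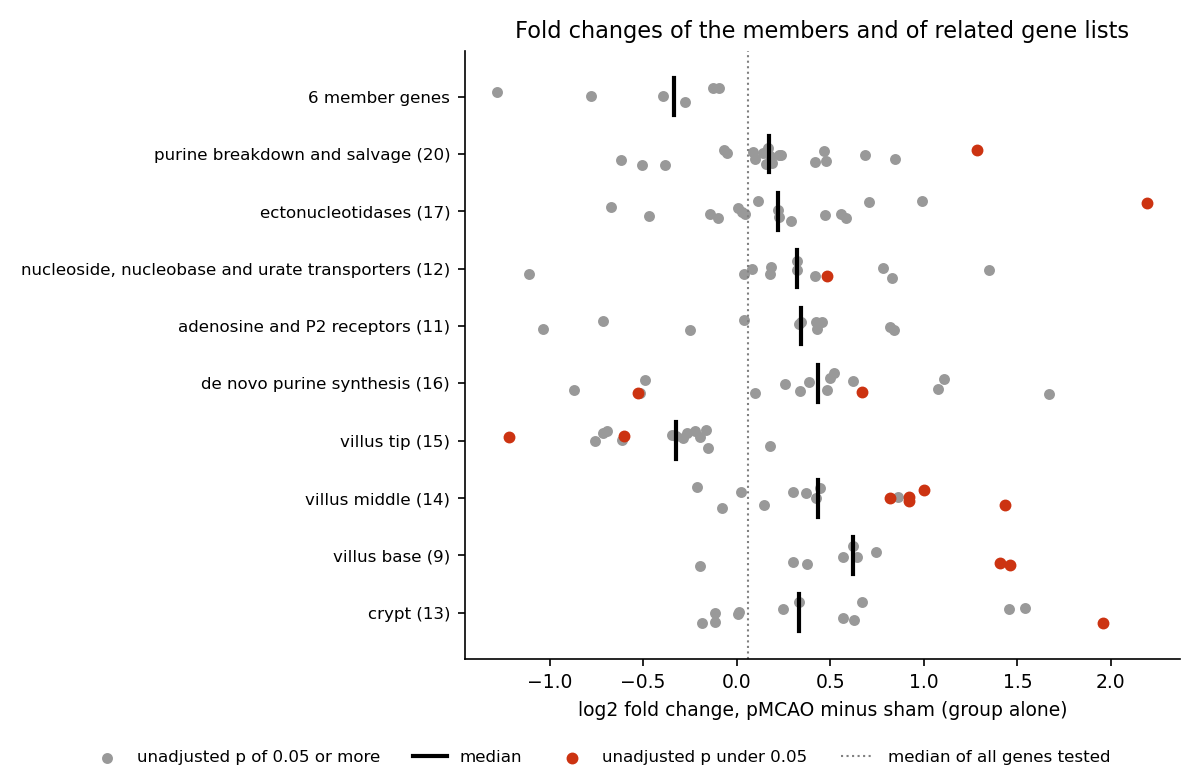
Log2 fold change on group alone of the 6 genes, the 5 purine lists and 4 lists of positions along the villus, 1 point per tested gene and the number tested in brackets, with red for an unadjusted p under 0.05 and black bars for medians. The median of the villus tip list, at -0.33, and that of the 6 genes, at -0.34, lie below that of all genes tested (dotted, 0.06), and the other 8 medians lie above it.

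Lists of genes by position along the villus put the 6 genes beside their neighbours. Of 15 villus tip markers 14 had an estimate below 0 on group alone, against 44.8% of all genes, and 11 did with library blocks, against 48.7%. Their median was -0.33 on group alone and -0.15 with blocks. On group alone 2 had an unadjusted p under 0.05, where 3.77% of all genes were lower at that p. With blocks 4 were lower, where 6.17% of all genes were. Pmp22, a membrane protein, was at 1076 ± 442 CPM in sham and 614 ± 707 CPM in pMCAO with -1.22 and a standard error of 0.46 (adjusted p = 0.510, limma-voom), and -0.74 with library blocks (adjusted p = 0.196) and 0.29, -1.02 and -1.49 within them. Junb, a transcription factor of the AP-1 family, was at 75.4 ± 18.2 and 48.9 ± 13.3 CPM with -0.60 and a standard error of 0.22 (adjusted p = 0.495), and -0.88, -0.17 and -0.40 within blocks. Neat1, a nuclear RNA, had -0.69 (adjusted p = 0.607), and -0.44 with library blocks (unadjusted p = 0.0489, adjusted p = 0.389, limma-voom).

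Lists from lower on the villus had medians above 0 in both fits. Of 14 villus middle markers 5 had an unadjusted p under 0.05, all higher, where 4.66% of all genes were. They included Slc5a1, the sodium-glucose carrier, with 0.92 and a standard error of 0.26 (adjusted p = 0.338, limma-voom) and 0.61 with library blocks (adjusted p = 0.0815), Slc2a5, the fructose carrier, with 1.43, and the fatty acid binding protein Fabp2 with 0.92 (adjusted p = 0.444 and 0.532). Within blocks Fabp2 had 2.68, 0.44 and -0.61, so its sign was not the same in all 3. With library blocks 4 of the 14 markers had an unadjusted p under 0.05, all higher, where 6.58% of all genes were. On group alone 2 of 9 villus base markers had an unadjusted p under 0.05. These were Reg3b and Reg3g, antimicrobial lectins, with 1.41 and 1.46 (adjusted p of 0.53 for each), and both were lower in pMCAO within libraries 62 to 65, by log2 values of -0.38 and -0.31. With library blocks none of the 9 had an unadjusted p under 0.05, and both genes stood at 0.78 (adjusted p = 0.393 for Reg3b and 0.477 for Reg3g, limma-voom). Ccl25, a chemokine of the small intestine, had 0.57 on group alone and 0.30 with blocks (adjusted p = 0.628 and 0.448). Of 13 crypt markers 1 did, the replication factor Mcm2, at 1.81 ± 1.67 and 4.25 ± 1.77 CPM with 1.96 (adjusted p = 0.338). The stem cell markers Olfm4 and Smoc2 had 1.54 and 1.46 (adjusted p = 0.647 and 0.649), and 0.79 and 1.01 with blocks. None of these genes passed an adjusted p of 0.05 in either fit.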

How the data were processed

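Per the labels and the study's methods, RNA of live EpCAM+ cells was freed of ribosomal RNA by cleavage, sequenced as paired-end reads of 100 bases, aligned to GRCm38 with STAR and assigned with featureCounts; the strand setting is not given in the sources used here. The authors deposited unnormalised read counts per gene, CPM computed from them, a log2 fold change with an average log2 expression, and p-values with false discovery rates. The deposited log2 and p-value columns hold the authors' own comparison and were not used, nor was CPM. No column was left unmatched to a sample.

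Counts were filtered with filterByExpr (minimum count of 10), scaled by TMM and tested with limma-voom on group alone (limma 3.58.1, edgeR 4.0.16, R 4.3.3), with Benjamini-Hochberg adjustment over 14462 genes. The authors corrected for collection day, which the labels do not give. Blocks of library numbers stood in as an alternative, and their break points came from earlier examination of these data. Differentially expressed (DE) means an adjusted p no higher than 0.05 with a log2 fold change of 1 or more in either direction. The alternatives included DESeq2 1.42.0, edgeR and other scalings, filters and samples. Correlations used log2 CPM with a prior count of 2. Scripts were tested on simulated data.

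Named were the 6 genes, in each list those past an adjusted p of 0.05 in either fit and the 3 with the smallest unadjusted p, and the 3 genes most like each of the 6. Of the cell type lists only genes that bear on a result are named, and the copies Gm14085 and Pnp2 were added after their values were seen. The 6 genes and the lists were chosen with earlier results of these data known. Floors of 3 counts and intervals cover counting error or the spread between these samples only. The labels call the samples biological replicates.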

Additional observations from a re-analysis of the deposited data

Results flagged for a closer look

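Of 14 sets of samples tested for a sample far from the others, 1 was marked, where chance marks about 1 in 20. Enpp3 in pMCAO replicate 1 stood at 11.03 on the log2 CPM scale, where pMCAO replicates 2 to 5 averaged 9.90 ± 0.17 (SD, n = 4). The 3 sham samples of the same block of library numbers had Enpp3 levels of 1772 to 2515 CPM, around the 2098 CPM of that sample. The part of the library block in this value was not tested.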

How the results depend on the processing

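Ada, Nt5e and Slc28a2 kept an estimate below 0 under all 27 alternatives. Enpp3 reversed to 0.0591 with total counts only and to 0.0629 without libraries 58 to 61, Xdh to 0.223 and 0.146 under the same settings and to 0.0277 without sham replicate 3, and Pnp to 0.183 with total counts only, to 0.0866, 0.123 and 0.110 with library blocks in limma-voom, edgeR and DESeq2, and to 0.0047 without pMCAO replicate 2; the cause was not tested. Against 0 DE genes in the fit on group alone, 1219 genes with an unadjusted p under 0.05 there and 930 with edgeR (0 DE), the count was 68 with DESeq2, 1 with limma-trend, 18 with sample quality weights, 3 with total counts only, 156 with library number as a covariate, and 47, 21 and 115 with library blocks in limma-voom, edgeR and DESeq2. Leaving out 1 sample gave 0 to 17 DE genes (5 without sham replicate 7, 8 without pMCAO replicate 1, 17 without pMCAO replicate 3). Of the 6 genes, 3 had an unadjusted p under 0.05 with sample quality weights (13.8% of all genes), 1 in each fit with library blocks (12.7, 9.16 and 11.3%), 2 with library number as a covariate (18.4%), 1 without libraries 58 to 61 (7.58%), and 0 to 3 when 1 sample was left out (3 without pMCAO replicate 1, with 14.1% of all genes, 2 without sham replicate 7, with 11.8%, and 1 without sham replicate 4 or pMCAO replicate 3, with 8.81 and 7.71%). With library blocks the gene at that p was Slc28a2 in limma-voom and DESeq2 (unadjusted p = 0.0432 and 0.0343). In edgeR it was Nt5e (unadjusted p = 0.0494), with Slc28a2 at 0.0648. Leaving out 1 sample gave -0.89 to -0.17 for Ada, -1.83 to -0.73 for Nt5e, -0.50 to -0.11 for Enpp3, -1.18 to -0.56 for Slc28a2, -0.32 to 0.0277 for Xdh and -0.27 to 0.0047 for Pnp. In the purine lists 9 genes in place of 5, and in the villus tip list 4 in place of 2, had an unadjusted p under 0.05 with library blocks.

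Samples of the 2 groups share replicate numbers, but only 1 of 5 pMCAO samples correlated best with the sham sample of its own number (r of -0.24 to 0.40 between same-numbered samples), so the numbers were not taken to pair them. A fit with the replicate number as a block, over replicates 1 to 5, gave 259 DE genes, an unadjusted p under 0.05 for 4 of the 6 genes against 17.6% of all genes, and values of -1.66 for Nt5e (adjusted p = 0.0168) and -1.19 for Slc28a2 (adjusted p = 0.0331). No call on the 6 genes came from any other alternative.

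Depth was 7418730 counts or more and each of the 6 genes had at least 303, so counting error was small beside the spread between samples, which set the width of the intervals.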
